A study of Mus musculus with 4 samples.

Results

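Hox cluster genes are the homeobox transcription factors that lie side by side in 4 chromosomal clusters, Hoxa, Hoxb, Hoxc and Hoxd. They were chosen here by symbol alone, as every listed gene named Hox, a cluster letter from a to d and a paralog number, which gave 33 of the 28250 genes listed for each library: 10 Hoxa, 8 Hoxb, 9 Hoxc and 6 Hoxd genes. Hox genes outside this list were not analysed here. RNA-seq was made from TBV2 mouse embryonic stem cells (ESC), a mouse line that is grown on a feeder layer with LIF, the cytokine that holds ESC undifferentiated. All 4 libraries came from TBV2 cells in LIF at 24 h: 2 had received solvent and 2 had received 5 µM MS-275 (entinostat), an inhibitor of class I histone deacetylases. The labels name both the feeder layer and gelatin-coated plates, and RNA of feeder cells, where any were present, cannot be told apart from that of ESC. No source used here states that the replicates were separate cultures, so the p-values measure the spread between these libraries, which may be technical. Where the replicate number is part of the fit, that spread is only how far the changes of the 2 replicate pairs differ.

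The clusters are read along the body axis. Genes with low paralog numbers lie at one end of each cluster, are switched on early and mark the hindbrain and neck, while genes with high paralog numbers come on later and mark the trunk, limbs and tail. In undifferentiated ESC the clusters are largely silent and carry the mark of Polycomb repression together with an active mark. Retinoic acid, Wnt and Fgf signals, passed on by factors such as the Cdx proteins, open them during differentiation. Hox proteins bind DNA with partners of the TALE homeodomain class, the Pbx, Meis and Pknox proteins.

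Promoters are shown here for the 3 members with the largest log2 change on values + 0.005 that had an entry in the RefSeq promoter table, and for the member with an entry and the lowest change, so that the letters in front of genes that did and did not move can be seen side by side. The table held promoters for 17 of the 33 members. Each sequence is the 250 bases before the start of the gene on build GRCm38.p6, written 5′ to 3′ on the gene's own strand, and the capitals mark the motifs TGATNNAT, the form bound by Pbx-Hox pairs, and AGGTCA, the motif of nuclear receptors such as the retinoic acid receptors, on either strand. Hoxd1 lies at chr2:74762730-74762979 on the plus strand, Hoxb1 at chr11:96365508-96365757 on the plus strand, Hoxb4 at chr11:96318017-96318266 on the plus strand and Hoxa11 at chr6:52245811-52246060 on the minus strand.
Hoxd1: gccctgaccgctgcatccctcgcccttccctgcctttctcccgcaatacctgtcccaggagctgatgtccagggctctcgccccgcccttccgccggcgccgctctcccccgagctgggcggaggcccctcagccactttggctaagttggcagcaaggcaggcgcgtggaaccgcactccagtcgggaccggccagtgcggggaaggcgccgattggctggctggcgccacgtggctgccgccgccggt
Hoxb1: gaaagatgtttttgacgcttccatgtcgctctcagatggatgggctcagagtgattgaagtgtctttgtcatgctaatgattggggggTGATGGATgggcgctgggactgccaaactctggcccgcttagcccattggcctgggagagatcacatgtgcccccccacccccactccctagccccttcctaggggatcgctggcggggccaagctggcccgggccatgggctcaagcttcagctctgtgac
Hoxb4: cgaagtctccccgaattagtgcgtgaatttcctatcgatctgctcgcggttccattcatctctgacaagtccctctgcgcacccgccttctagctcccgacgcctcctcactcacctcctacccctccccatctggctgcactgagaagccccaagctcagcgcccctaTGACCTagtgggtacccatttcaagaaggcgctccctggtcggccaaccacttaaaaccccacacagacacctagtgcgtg
Hoxa11: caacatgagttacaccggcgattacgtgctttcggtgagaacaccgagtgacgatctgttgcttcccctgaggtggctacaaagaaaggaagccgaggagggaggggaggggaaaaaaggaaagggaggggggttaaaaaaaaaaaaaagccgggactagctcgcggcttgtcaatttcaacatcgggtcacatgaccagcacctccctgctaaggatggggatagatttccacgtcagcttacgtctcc
The Hoxb1 window held the letters TGATGGAT, which match TGATNNAT, from 162 to 155 bases before the start. Hoxb4 held TGACCT, the reverse complement of AGGTCA, from 81 to 76 bases before the start. Neither motif was found in the windows of Hoxd1 and Hoxa11, which says only that these letters are not in these windows. Among the 18 windows of the 17 members, 2 (11.1%) held TGATNNAT, against 7.68% of the 32851 windows of all genes. AGGTCA was in 4 of 18 (22.2%) against 14.0%, and TGACAG, the letters of a Meis or Pknox site, in 2 of 18 (11.1%) against 15.9%. GGGCGG, the GC box, was in 7 of 18 (38.9%) against 32.7%, and TATAAA, the TATA box, in 2 of 18 (11.1%) against 12.4%. The members' windows held a median of 12.5 CG dinucleotides, against 6 in all windows. Hoxd1 had 24 and Hoxb1 7, and Hoxa11, which did not rise, had 13.

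Levels are given as the authors' normalized expression values, a signal whose formula is not given in the sources used here. Over 17564 genes the values followed alignment counts per exon length more closely than plain counts (r = 0.958 against 0.937 for solvent replicate 1 and the alignments deposited for solvent replicate 2). Over the 31 tested members the plain counts were the closer (0.952 against 0.925), so an order of levels between Hox genes is given as the values have it and may in part reflect their lengths. The summed value of all genes was 2490 and 3629 in the solvent libraries and 2493 and 4359 in the MS-275 libraries, in the order of replicates 1 and 2, an order used for all values below. Of the alignments deposited for replicate 1, 53.24% (solvent) and 54.41% (MS-275) repeated a position, against 0% for replicate 2 of both conditions. Counts of all alignments are therefore unlike between the replicates. The deposited alignments numbered 9785619 to 23467935 a library. They had 409 to 627 distinct positions on the exons of the 33 Hox genes with solvent and 1115 to 1573 with MS-275, and 10 and 16 of the members had 3 or fewer positions in the solvent alignments, so the levels of single members in solvent rest on few reads. Over the 31 tested members, those of solvent replicate 1 tracked the alignments deposited for solvent replicate 2 (r = 0.925 per length, across genes) more closely than their own (r = 0.867), and the same exchange was seen in all 4 libraries. Alignments are therefore named by the sample they were deposited with, and the exchange stays within a condition.

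Most Hox genes were close to the floor in solvent and higher with MS-275. The median value of the 33 members was 0.00185 and 0.00187 in the solvent libraries and 0.00750 and 0.00885 in the MS-275 libraries, while the median of all tested genes was 0.0490 and 0.0308 with solvent and 0.0593 and 0.0409 with MS-275. A value of at least 0.001 was reached by 22 and 22 members in solvent and by 31 and 32 in MS-275. Values of 0 were found for 5 and 5 members in solvent and for none in MS-275. The sum over all members was 0.203 and 0.169 in solvent (mean 0.186 ± 0.0244, SD, n = 2) and 0.517 and 0.550 in MS-275 (0.534 ± 0.0234, SD, n = 2), a log2 ratio of 1.52. The groups did not overlap, and the exact two-sided permutation test gave p = 0.333, the smallest that 2 libraries against 2 allow. Fewer cells that express a gene and less RNA per cell cannot be told apart in these libraries.

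**Figure D1:**
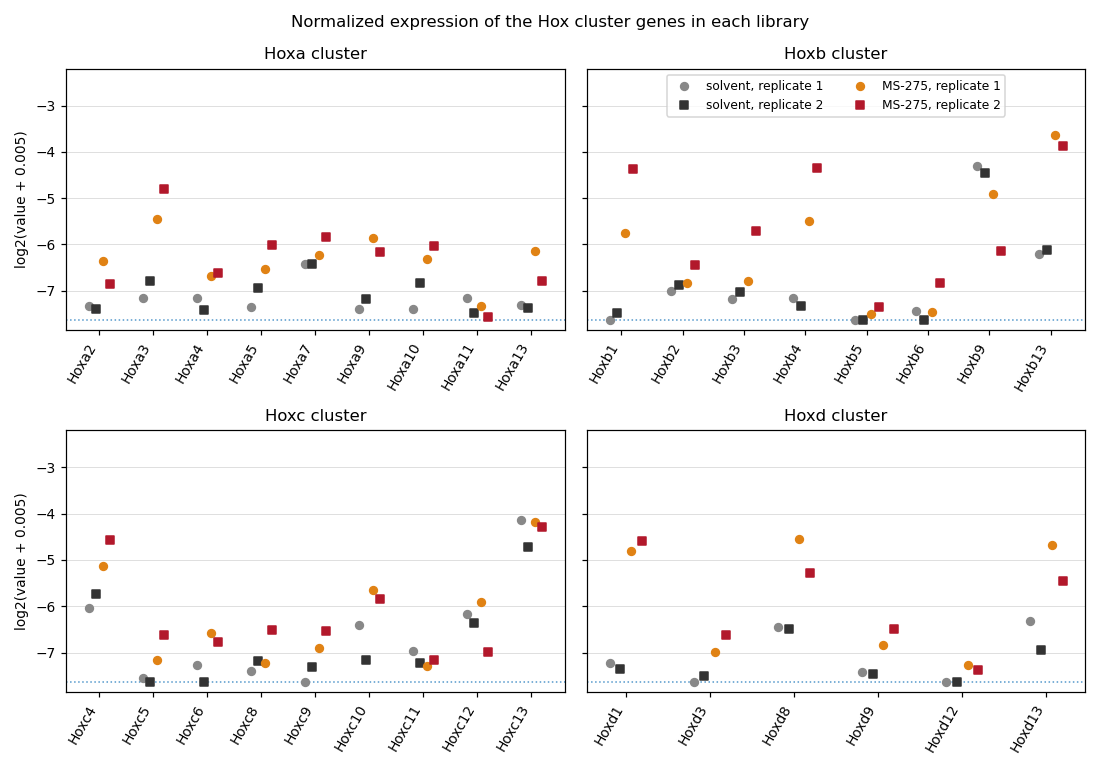
Normalized expression of 32 of the Hox cluster genes, 1 panel per cluster, as log2(value + 0.005); the dotted line is a value of 0. Circles are replicate 1 and squares replicate 2, with solvent in grey and black and MS-275 in orange and red. Most members sit near the dotted line in solvent and above it in MS-275, while Hoxb9 is lower in MS-275 and the Hoxc13 values of both groups overlap.

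Taken with no filter on low values, 27 of the 33 members had a higher MS-275 value in each of the 2 pairs, against 39.2% of all 28250 genes, and 2 were lower in both, against 19.7%. The test was run on log2(value + 0.005) for genes at 0.001 or more in at least 2 libraries, which kept 31 members. Hoxb1, Hoxc5, Hoxd3, Hoxd9 and Hoxd12 were under 0.001 in both solvent libraries and so were kept through their MS-275 values, and counts over the 31 members are descriptions for that reason. Their own tests rest on the values that let them in, so their changes are given below with no p and as descriptions. Hoxb5 (0 and 0 with solvent, 0.000510 and 0.00110 with MS-275) and Hoxb6 (0.000770, 0, 0.000690 and 0.00378) were not tested. Of the 31, 26 were up in each pair (50.0% of the 20336 tested genes were) and 2 were down in each (26.5%). In 25, both MS-275 values were above both solvent values (32.3% of tested genes), and in 1 both were below (12.0%). The median log2 change of the 31 members was 0.78, and that of all tested genes was 0.20.

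Without a replicate block no Hox gene passed an adjusted p of 0.05 in limma in either direction. The shares of all genes were 0.00492% higher and 0.00% lower. By the unadjusted p at 0.05, 19 members were above solvent (14.6% of all genes) and none was below (2.77%). With the replicate number as a block, which the authors' column names and the values both bear out, 21 members rose (21.0% of all genes) and 1 fell (6.46%). Hoxb1, Hoxc5, Hoxd3 and Hoxd9, kept through their MS-275 values, are among the 21. "Rose" and "fell" are used below only for members that passed in this blocked fit, and the SE and adjusted p given with a log2 change are those of the blocked limma fit unless stated. A count-type test of distinct exon positions without a block (limma-voom) tested 21 members and had 12 higher (16.9% of all genes) and none lower (5.80%). Among the 12, Hoxa9, Hoxa13, Hoxb1, Hoxb4, Hoxd1 and Hoxd3 had under 10 positions in the alignments of both solvent libraries. They were kept through their MS-275 positions, so these counts are descriptions as well. The all-gene median of 0.20 became -0.01 once values were scaled by median ratios and -0.03 once they were quantile normalized, and the members' median then was 0.71 and 0.44. With the block, 20 members were called higher after the first scaling and 9 after the second, and 1 lower after each. The shares of all genes called after these scalings were not taken, so these counts describe the members alone. Of the 22 members that passed with the block, 10 also passed in every blocked alternative with a filter in which they were tested, among them Hoxa3, Hoxa9, Hoxb4, Hoxb9, Hoxb13, Hoxd1, Hoxd8 and Hoxd13. The limma-voom alternatives kept Hoxa9, Hoxb4 and Hoxd1 through MS-275. So did the filter on a mean value of at least 0.01 for Hoxa3, Hoxb4, Hoxb13, Hoxd1, Hoxd8 and Hoxd13, which were under 0.01 in both solvent libraries. The count of 10 is therefore a description. In a blocked fit to all genes with no filter none of the 22 passed, with adjusted p from 0.259 to 0.385.

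**Figure D2:**
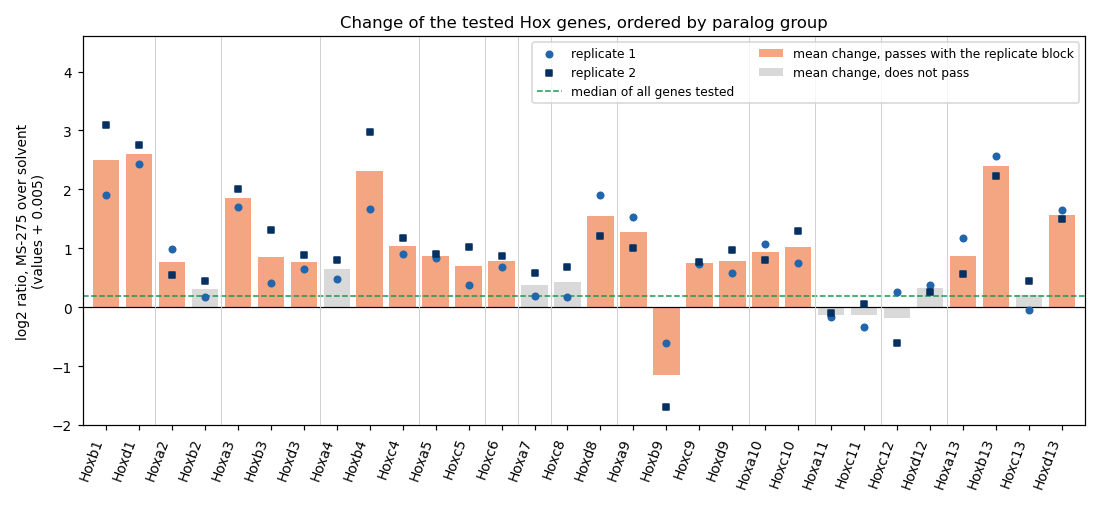
Log2 ratio of MS-275 over solvent on values + 0.005 for 30 of the tested Hox genes, ordered by paralog group and then by cluster. Bars are the mean of both pairs, orange where the blocked limma fit passed an adjusted p of 0.05 and grey where it did not; points are the ratios of the single pairs and the dashed line is the median of all tested genes, 0.20. Hoxd1, Hoxb1, Hoxb13 and Hoxb4 have the tallest bars, and Hoxb9 is the only orange bar below 0. The orange bars of Hoxb1, Hoxc5, Hoxd3 and Hoxd9 are descriptions, as these were kept through their MS-275 values.

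Summed by cluster, all 4 were higher with MS-275. Hoxd had the lowest sum in solvent, 0.0164 and 0.0116, and reached 0.111 and 0.0871 in MS-275, a log2 ratio of 2.83. Hoxa went from 0.0419 and 0.0384 to 0.149 and 0.157, a log2 ratio of 1.93, and Hoxb from 0.0613 and 0.0580 to 0.143 and 0.184, a log2 ratio of 1.46. Hoxc had the highest sum in solvent, 0.0835 and 0.0605, and stood at 0.114 and 0.122 in MS-275, a log2 ratio of 0.71. Within each cluster the groups did not overlap, and each exact permutation p was 0.333, the smallest possible. In the blocked fit 7 of 10 tested Hoxa genes, 4 of 6 Hoxb, 5 of 9 Hoxc and 5 of 6 Hoxd genes rose, against 21.0% of all tested genes. Hoxb1, Hoxc5, Hoxd3 and Hoxd9 are among those that rose, and Hoxd12 is among those tested. All of these were kept through their MS-275 values, so the counts by cluster are descriptions. Differences between the clusters were not tested.

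Paralog groups 1 to 3, the hindbrain and pharyngeal arch genes, had the highest median log2 change of the 3 ranges of paralogs, 1.27. All 8 were higher in both pairs (50.0% of all tested genes were) and 7 rose (21.0%). The 7 include Hoxb1 and Hoxd3, kept through their MS-275 values, so the count is a description. Hoxd1, a paralog group 1 gene with a narrower role than its relatives, was at 0.00165 and 0.00114 in solvent and 0.0310 and 0.0362 in MS-275. Its log2 change of 2.59 ± 0.30 (SE) was the largest of all members on values + 0.005 (adjusted p = 2.04e-05, and 0.0600 without the block). With a pseudocount of 0.001 it was 3.86, below Hoxb1 at 4.32, and with 0.02 it was 1.32, below Hoxb13 at 1.62. Hoxb1, which sets the identity of hindbrain rhombomere 4, was at 0 and 0.000620 in solvent and 0.0137 and 0.0431 in MS-275. Its log2 change was 2.50, and was 3.18 without MS-275 replicate 1 and 1.82 without MS-275 replicate 2, so its size differed between the MS-275 libraries while both lay far above solvent. Hoxb1 had 3 and 0 distinct exon positions in the solvent alignments and 115 and 31 in those of MS-275.

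Hoxa3, needed for the thymus, parathyroid and throat cartilages, was at 0.00203 and 0.00401 in solvent and 0.0178 and 0.0310 in MS-275, a change of 1.85 ± 0.30 (adjusted p = 0.000295). On values + 0.005 the other genes of group 3 had smaller estimates. In limma-voom on distinct positions without the block, the estimate of Hoxd3 (3.56) was above that of Hoxa3 (2.72), and Hoxb3 was not tested. Hoxb3 was at 0.00185 and 0.00270 in solvent and 0.00405 and 0.0140 in MS-275 (0.85 ± 0.28, adjusted p = 0.0312), and its pairs were uneven, at 0.40 and 1.31. Hoxd3 was at 0 and 0.000470 in solvent and 0.00286 and 0.00512 in MS-275 (a log2 change of 0.77, given as a description). Of the annotated exon bases of Hoxa3, Hoxb3 and Hoxd3, 28.0%, 37.9% and 35.8% are shared with exons of other genes, so their signal and that of neighbours cannot be fully told apart. Hoxa2, the selector of the second pharyngeal arch, was at 0.00122 and 0.000920 in solvent and 0.00727 and 0.00366 in MS-275 (0.76 ± 0.24, adjusted p = 0.0247). Hoxb2, its partner in paralog group 2, had a change of 0.30 (adjusted p = 0.389) and was the only member of groups 1 to 3 that did not pass.

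In paralog groups 4 to 8, which pattern the neck and the upper trunk, the median log2 change was 0.78. All 9 tested genes were higher in both pairs (50.0% of all tested genes were) and 6 rose (21.0%). The 6 include Hoxc5, kept through its MS-275 values, so the count is a description. Hoxb4, known for expanding blood stem cells when forced on, was at 0.00199 and 0.00123 in solvent and 0.0171 and 0.0438 in MS-275. Its change of 2.32 ± 0.33 (adjusted p = 0.000123) was the largest in these groups, and its distinct positions went from 6 and 5 to 177 and 48. Hoxd8, a trunk gene, was at 0.00640 and 0.00612 in solvent and 0.0377 and 0.0207 in MS-275 (1.56 ± 0.32, adjusted p = 0.00190). Hoxc4, which already had 48 and 20 distinct positions in solvent, was at 0.0103 and 0.0138 and rose to 0.0236 and 0.0373 (1.04 ± 0.31, adjusted p = 0.0207). Hoxa5, which acts in the lung and the cervical spine, was at 0.00109 and 0.00318 in solvent and 0.00586 and 0.0104 in MS-275 (0.87 ± 0.25, adjusted p = 0.0168).

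The remaining genes of these groups stayed at low levels. Hoxc6, a gene of the thoracic level, was at 0.00150 and 0 in solvent and 0.00539 and 0.00417 in MS-275 (0.78 ± 0.23, adjusted p = 0.0177). Hoxc5 was at 0.000370 and 0 in solvent and 0.00201 and 0.00513 in MS-275 (a log2 change of 0.70, given as a description). Hoxa7, at 0.00672 and 0.00668 in solvent and 0.00834 and 0.0124 in MS-275, did not pass (0.38 ± 0.29, adjusted p = 0.351), and its change was -0.13 after quantile normalization. Hoxa4 (0.64, adjusted p = 0.0520) and Hoxc8 (0.42, adjusted p = 0.188) did not pass either.

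Paralog groups 9 to 13, the genes of the lower trunk, limbs and tail, were uneven, with a median log2 change of 0.77. Of 14 genes, 9 were up and 2 down in each pair, against 50.0% and 26.5% of all tested genes. In the blocked fit 8 rose and 1 fell, against 21.0% and 6.46%. The 8 include Hoxd9, kept through its MS-275 values, as was Hoxd12 among the 14, so the counts are descriptions. Hoxb13, which acts in the tail bud and the prostate, was at 0.00856 and 0.00941 in solvent and 0.0754 and 0.0628 in MS-275. With a change of 2.40 ± 0.30 (adjusted p = 4.13e-05, and 0.0840 without the block) it had the largest change of these groups on values + 0.005, and it lies at the opposite end of its cluster from Hoxb1. It had 25 and 11 distinct positions in solvent and 105 and 116 in MS-275. Hoxd13, which shapes the digits, was at 0.00748 and 0.00312 in solvent and 0.0340 and 0.0178 in MS-275 (1.57 ± 0.30, adjusted p = 0.00125). Hoxa13, which acts with Hoxd13 in the limb bud, was at 0.00133 and 0.00107 in solvent and 0.00920 and 0.00397 in MS-275 (0.86 ± 0.25, adjusted p = 0.0167). Hoxc13, which acts in hair and nails, had the highest value of any member in solvent replicate 1 and did not pass. Its values were 0.0517 and 0.0328 in solvent and 0.0501 and 0.0462 in MS-275, which overlap (0.20 ± 0.28, adjusted p = 0.638), with 145, 125, 146 and 134 distinct positions. Its estimate was -0.06 with median-ratio scaled values and -0.10 with quantile normalized ones.

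Hoxb9, a thoracic gene that was the second most expressed member in solvent replicate 1 and the most expressed in solvent replicate 2, was the single member that fell. It was at 0.0453 and 0.0405 in solvent and 0.0281 and 0.00907 in MS-275, a change of -1.15 ± 0.33 (adjusted p = 0.0167, and 0.446 without the block). Both MS-275 values were below both solvent values, but the size differed between pairs, at -0.60 and -1.69. The change was -0.53 without MS-275 replicate 2 and -1.77 without MS-275 replicate 1. Distinct exon positions were 149 and 94 in solvent and 39 and 63 in MS-275, and limma-voom on them gave an adjusted p of 0.0522 without the block and 0.00199 with it. The other paralog group 9 genes went the opposite way. Hoxa9, a regulator of blood progenitors, was at 0.000950 and 0.00189 in solvent and 0.0122 and 0.00885 in MS-275 (1.27 ± 0.26, adjusted p = 0.00213). Hoxd9 was at 0.000840 and 0.000700 in solvent and 0.00377 and 0.00618 in MS-275 (a log2 change of 0.78, given as a description). Hoxc9, a marker of thoracic motor neurons, was at 0 and 0.00133 in solvent and 0.00335 and 0.00581 in MS-275 (0.76 ± 0.22, adjusted p = 0.0188).

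Both genes of paralog group 10, which gives the lumbar spine its form, rose. Hoxa10 was at 0.000980 and 0.00374 in solvent and 0.00750 and 0.0102 in MS-275 (0.93 ± 0.26, adjusted p = 0.0134), and Hoxc10 was at 0.00675 and 0.00202 in solvent and 0.0149 and 0.0123 in MS-275 (1.03 ± 0.29, adjusted p = 0.0149). None of the genes of paralog groups 11 and 12 passed. Hoxa11, which acts in the forearm and kidney, was at 0.00195 and 0.000610 in solvent and 0.00120 and 0.000240 in MS-275 (-0.13 ± 0.20, adjusted p = 0.667), and part of its exon bases is shared with exons of another gene. Hoxc11 had a change of -0.14 (adjusted p = 0.686). Hoxc12 was at 0.00892 and 0.00708 in solvent and 0.0116 and 0.00291 in MS-275 (-0.18 ± 0.30, adjusted p = 0.690), with the pairs going opposite ways. Hoxd12 was at 0 in both solvent libraries and at 0.00148 and 0.00101 in MS-275 (a log2 change of 0.32, given as a description), and lay at 0 and 0 against 6 and 4 distinct positions.

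**Figure D3:**
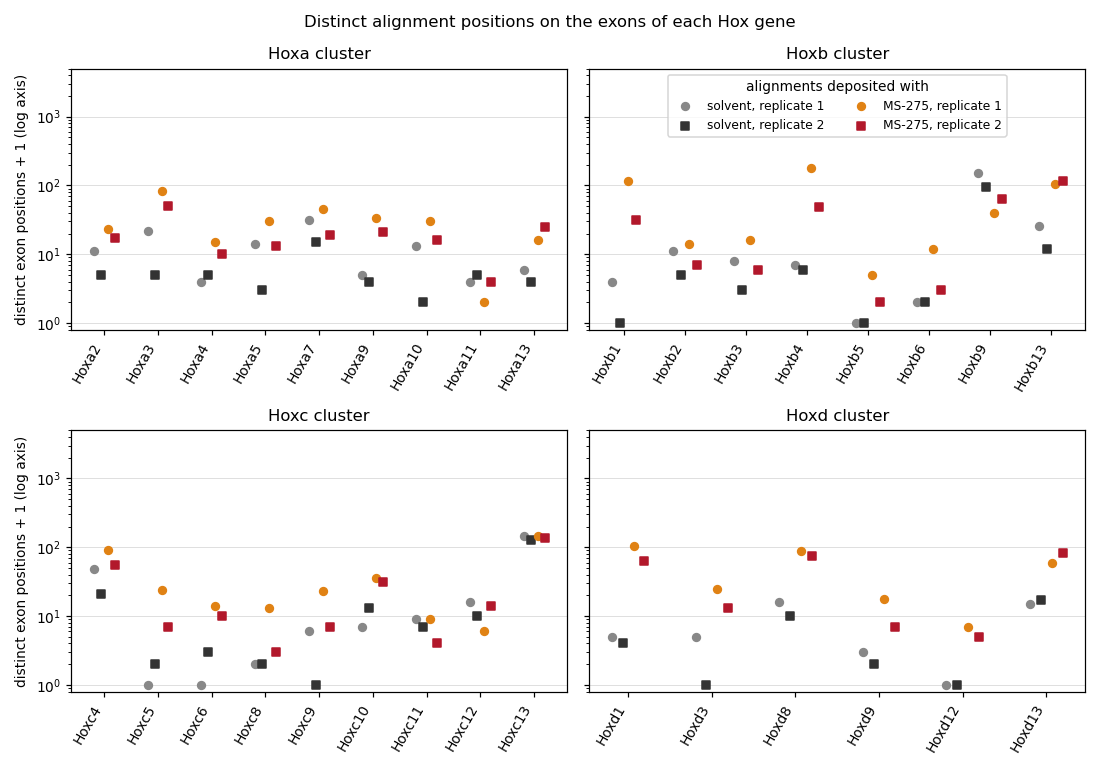
Distinct alignment positions on the exons of 32 of the Hox genes plus 1, on a log axis, 1 panel per cluster, for the alignments deposited with each library. Hoxb1 had 3 and 0 positions with solvent and 115 and 31 with MS-275, Hoxb9 had fewer with MS-275, and Hoxc13 had 125 to 146 in all 4.

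Genes that border the clusters were listed as well. The listed genes of the 4 clusters lie in mm9 on chromosome 6 from 52112350 (Hoxa2) to 52210874 (Hoxa13), chromosome 11 from 96055630 (Hoxb13) to 96229570 (Hoxb1), chromosome 15 from 102751534 (Hoxc13) to 102867274 (Hoxc4) and chromosome 2 from 74506367 (Hoxd13) to 74603200 (Hoxd1). Of 22 listed flanking genes, 21 were tested. They had a median log2 change of 0.24, against 0.20 for all tested genes, and 4 rose and 2 fell, shares near those of all genes (21.0% and 6.46%). Calcoco2, an autophagy receptor gene near Hoxb, went from 0.111 and 0.0744 to 0.399 and 0.583 (2.34, adjusted p = 1.35e-05). Skap1, a T cell adaptor gene next to Hoxb1, went from 0.00653 and 0.00280 to 0.0521 and 0.0232 (2.08, adjusted p = 0.000166). Hnrnpa3 (-0.66, adjusted p = 0.0444) and Nfe2l2 (-0.65, adjusted p = 0.0457), both near Hoxd, fell. The Evx genes, homeobox genes at the ends of the Hoxa and Hoxd clusters, were at 0 in solvent and at most 0.00113 in MS-275, and were not tested.

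Of 16 RNAs made from within the clusters, 6 were matched by identifier or symbol and 3 were tested. Hoxaas3, an antisense RNA of Hoxa, had a change of 0.84 (adjusted p = 0.0464), Hoxd3os1 one of 0.61 from 0 in both solvent libraries, a description since its MS-275 values alone let it into the test, and Hotair, from between Hoxc11 and Hoxc12, one of 0.07 (adjusted p = 0.839). The counting of strand is not stated in the sources used here, so an antisense RNA and the Hox gene opposite it cannot be told apart.

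Among the TALE cofactors of Hox proteins, 8 of 9 were found and tested, 3 rose (21.0% of all tested genes) and 1 fell (6.46%). Their median log2 change was 0.45. Meis1, which stabilizes Hox-Pbx binding on DNA, was at 0.00459 and 0.00428 in solvent and 0.0411 and 0.0433 in MS-275 (2.32, adjusted p = 6.13e-05). Meis3 (0.96, adjusted p = 0.0317) and Meis2 (0.94, adjusted p = 0.0369) also rose. Pbx3 had a change of -0.18 (adjusted p = 0.645). None of these passed without the block.

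The 18 listed regulators of Hox genes in the axis and hindbrain, Cyp26a1 that degrades retinoic acid among them, had a median log2 change of 1.003, with 11 that rose and 1 that fell. Of all tested genes 21.0% rose and 6.46% fell. The 11 include Cdx2, kept through its MS-275 values, so the count is a description. Aldh1a2, which makes retinoic acid, was at 0.0167 and 0.0103 in solvent and 0.173 and 0.120 in MS-275 (3.03, adjusted p = 2.38e-06). Cdx1, a ParaHox factor that binds Hox regulatory regions, was at 0.0214 and 0.00963 in solvent and 0.184 and 0.120 in MS-275 (2.96, adjusted p = 2.68e-06). Rara, a retinoic acid receptor, fell from 0.157 and 0.112 to 0.109 and 0.0494 (-0.81, adjusted p = 0.0211), and Rarg had a change of -0.28 (adjusted p = 0.408). In the 6 ParaHox genes, the relatives of the Hox genes outside the clusters, 3 rose and none fell, with a median of 0.77. They were Cdx1, Pdx1 (1.75) and Cdx2 (0.94), and the last 2 were under 0.001 in both solvent libraries, so their changes are descriptions. The neural ParaHox genes Gsx1 (0.10, adjusted p = 0.761) and Gsx2 (-0.21, adjusted p = 0.585) did not pass.

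**Figure D4:**
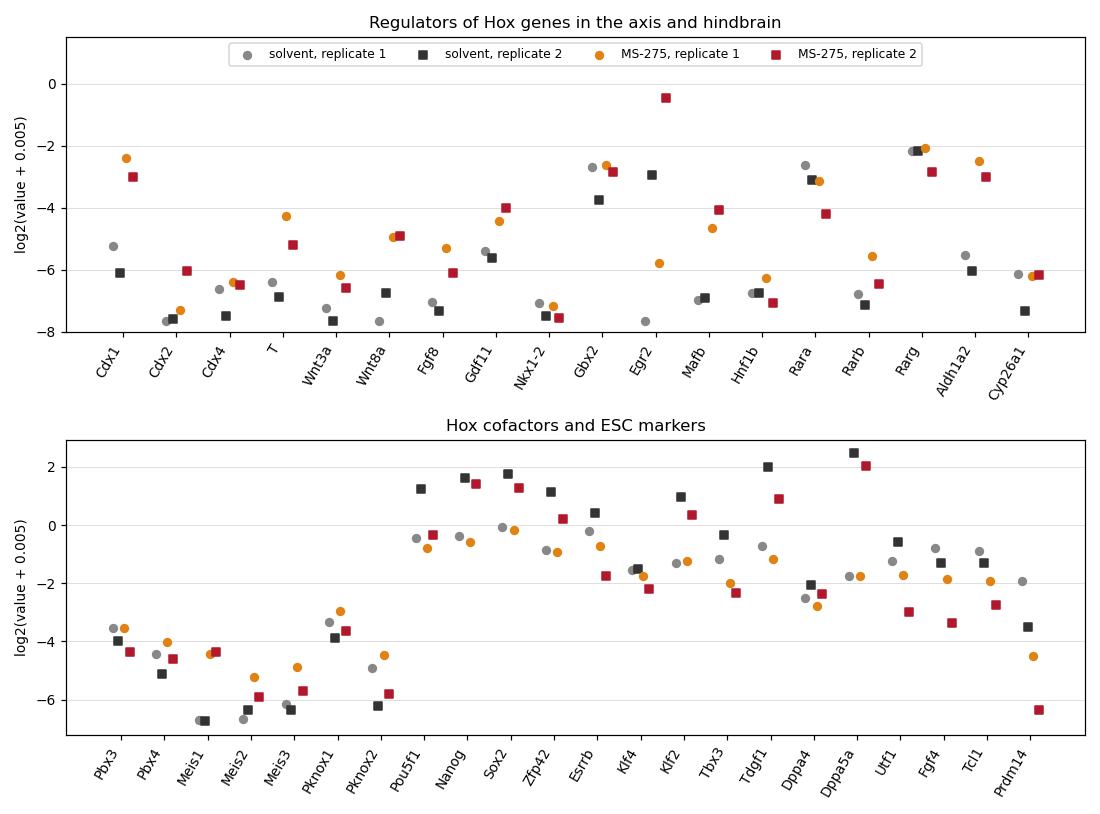
Values of the Hox regulators (top) and of 7 Hox cofactors and the ESC markers (bottom) in each library, as log2(value + 0.005). Circles are replicate 1 and squares replicate 2, with solvent in grey and black and MS-275 in orange and red. Aldh1a2, Cdx1 and Meis1 sit higher in both MS-275 libraries, and Prdm14 sits lower.

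Markers of ESC and of other cells moved in the same libraries. All 15 ESC markers were found above 0.001 in every library. Their summed value was 7.88 to 26.7 in solvent and 5.93 to 15.4 in MS-275, with 7 that fell (6.46% of all tested genes) and none that rose (21.0%). Prdm14 (-2.73, adjusted p = 4.80e-06) and Fgf4 (-1.56, adjusted p = 0.000337) had the lowest changes, and Dppa5a (-0.22, adjusted p = 0.662) and Nanog (-0.23, adjusted p = 0.679) the highest. Feeder fibroblasts can express Hox genes of their own. None of the 20 fibroblast markers was at 0 in any library, and their summed value was 1.76 to 3.02 in solvent and 2.06 to 2.67 in MS-275. Of these, 8 rose (21.0% of all tested genes) and none fell (6.46%): Col1a1 (2.41, adjusted p = 5.60e-05) and Fbn1 (1.37, adjusted p = 0.00379) had the highest changes, and Dcn (-0.72, adjusted p = 0.0728) and Fn1 (-0.71, adjusted p = 0.114) the lowest. For comparison with the lists below, 21.0% of all genes rose and 6.46% fell. In the neural progenitor list 4 of 13 tested genes rose and 1 fell, led by Nes (2.29, adjusted p = 4.09e-05) and Fabp7 (1.67, adjusted p = 0.000999), with Sox1 (-1.17, adjusted p = 0.0120) and Msi1 (-0.60, adjusted p = 0.0736) at the other end. Some of the 13, and 1 of the 4, were under 0.001 in both solvent libraries and were kept through their MS-275 values. The counts of this list are therefore descriptions. In the mesoderm list 4 of 12 rose and none fell, led by T (1.89, adjusted p = 0.000374) and Kdr (1.79, adjusted p = 0.000529). Msgn1 (-0.41, given as a description) and Tbx6 (-0.34, adjusted p = 0.380) were at the other end. Msgn1 was at 0 in both MS-275 libraries and was kept through its solvent values, so the counts of this list are descriptions too. In the endoderm list 2 of 8 tested rose and none fell, led by Afp (1.37, adjusted p = 0.000778) and Sox17 (1.33, adjusted p = 0.00266), with Foxa1 (0.14, adjusted p = 0.712) and Sox7 (0.19, adjusted p = 0.597) at the other end. The part of these cell types in the change of the Hox genes was not tested.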

How the data were processed

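RNA-seq of 4 libraries was analysed, 2 per group, grouped by their deposited titles. As deposited by the authors, the values are a normalized expression signal per gene, made with Genomatix from reads mapped to mm9. Its formula, the aligner and the handling of repeated reads are not given in the sources used here. The authors' ratio tables hold comparisons between the groups and were not used. The solvent is not resolved, since the study names DMSO for other assays and the control alignments are labelled ETOH. The members and gene lists were chosen with earlier results of these data known.

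Genes at 0.001 or more in at least 2 libraries (20336) were fitted with limma 3.58.1 in R 4.3.3 (lmFit, eBayes with a trend) on log2(value + 0.005), and p-values were adjusted by Benjamini-Hochberg over all of them. These signal values are not counts, so the alternative for counts was limma-voom on distinct exon positions of the alignments of 35 bases (GENCODE M1, mm9, with 10 positions or more required in 2 libraries). No depth can be taken from a signal value alone. Sums were compared with exact permutation tests (scipy 1.17.1). Fits were tested on simulated data.

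The main fit has no block. With the block, differences between replicates shared by both conditions are taken out. The spread left for a gene is the difference between the changes of its 2 pairs, which eBayes moderates by the spread over all genes. Replicate numbers pair the libraries, since the authors' column names call replicate 1 of both conditions old. As a check, deviations from group means had a correlation of 0.764 over 20336 genes for libraries sharing a number.

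Values in all libraries are given for the 3 members with the highest mean in each cluster, each cluster's largest rise and fall, and every member that passed with or without the block. From each other list the 2 genes with the highest and the 2 with the lowest change are named, and of the cofactors any may be. The motifs and the printed promoters were chosen after the values were seen. The results of 1 Hox gene and 1 cofactor are not reported here, though they stay in the counts and medians.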

Additional observations from a re-analysis of the deposited data

How the results depend on the processing

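The replicate block decided the calls. Without it 0 members were higher and 0 lower, and with the replicate block 21 and 1. Combined with the replicate block, the members called higher and lower were 21 and 1 with a pseudocount of 0.001, 20 and 1 with 0.02, 9 and 1 of 11 with a mean value of at least 0.01, 20 and 1 with median-ratio scaling, 9 and 1 with quantile normalization, 20 and 1 for eBayes without a trend, 16 and 1 of 21 for limma-voom on distinct positions, and 16 and 1 of 21 on all alignments; with no filter 0 and 0 passed, and the cause was not tested. Without the block, 4 were higher at a mean of at least 0.01, 12 for limma-voom on distinct positions and 7 on all alignments, with none lower. The 4 were Hoxa3, Hoxb1, Hoxb4 and Hoxd1, all under 0.01 in both solvent libraries, so their MS-275 values took them to that mean. In both limma-voom fits Hoxb1, Hoxb4, Hoxd1 and Hoxd3 were kept through their MS-275 counts. The counts at that mean and for limma-voom, with or without the block, are descriptions for that reason. Apart from the main limma fit, its blocked form and unblocked limma-voom on distinct positions, shares of all genes called were not taken. Counts under the other settings therefore describe the members alone. Combinations of the block with a pseudocount, a filter, no trend or all alignments were added after seeing the data. The median log2 change was 1.67 with a pseudocount of 0.001, 0.27 with 0.02, 0.44 after quantile normalization, and 1.69 at a mean of at least 0.01 with or without the block. It was 2.23 for limma-voom on both kinds of count, and 2.02 (distinct) and 2.05 (all) with the block there. Leaving out single libraries gave medians from 0.62 to 0.95 and no calls; the lone library of a group is then assumed to vary like the other group. Higher in both pairs were 9 and lower 1 of 11 at a mean of at least 0.01, 5 were lower after quantile normalization, and 1 for each limma-voom count. At minimum values of 0.005 and 0.01, 10 and 4 members were reached in solvent replicate 1, 8 and 4 in replicate 2, 20 and 14 in MS-275 replicate 1, and 24 and 15 in replicate 2. The summed value kept its direction in all 4 alternatives (lowest log2 ratio 0.968). Of 561 fold changes of the 27 named members under alternatives, 552 kept their direction. The 9 others, in 4 members that did not pass, were Hoxa7 at -0.13 after quantile normalization with and without the block, Hoxc13 at -0.10 there, at -0.0566 after median-ratio scaling with and without the block, and, with a library left out, Hoxc13 (from -0.0932 without solvent replicate 2 to 0.493), Hoxa11 (from -0.286 to 0.0229 without solvent replicate 1) and Hoxc12 (from -0.713 to 0.352 without MS-275 replicate 2). With 3 or fewer positions in solvent for up to 16 members, changes of single low genes are set by few reads.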

Other observations

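Intron positions were counted as distinct positions inside a Hox gene that lie on no annotated exon. Over all 33 members they numbered 145 and 72 in the solvent alignments and 264 and 157 in those of MS-275. Hoxd3 had 8 and 1 with solvent and 58 and 32 with MS-275, more than its 24 and 12 exon positions there. Hoxb3 had 4 and 1 with solvent and 34 and 11 with MS-275, again above its 15 and 5 exon positions. Hoxa3 had 13 and 13 with solvent and 58 and 26 with MS-275, below its 81 and 50 on exons. Hoxb9 had 54 intron positions in the alignments deposited with solvent replicate 1 and 4 in those of replicate 2, against 7 and 9 with MS-275.

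Egr2, a hindbrain factor that activates Hoxa2 and Hoxb2, was at 0 and 0.124 in solvent and 0.0132 and 0.720 in MS-275, so that its level differed between replicates by more than between the groups, while both pairs went up (2.18, adjusted p = 4.86e-05 in limma with the block and 0.616 without it). It was named after its values were seen.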
